A study of Mus musculus with 7 samples.

Results

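The genes described here are 37 classical targets of type I interferon, chosen by name from the deposited expression table and kept if they reached 1 TPM in at least 3 samples. All 37 listed genes were found and all 37 passed that filter, among 13798 genes that passed it of 55357 in the table. RNA was sequenced after poly(A) selection from live CD45+ CD8+ T cells, sorted on day 14 out of subcutaneous tumours of MCA205, a mouse fibrosarcoma line grown as a transplant. The groups were 4 libraries from ENT1KO (Slc29a1-/-) mice, replicates 11, 12, 14 and 15, and 3 libraries from C57Bl/6 WT mice, replicates 1, 2 and 3. The labels give the deletion for the host mice, and both genotypes received the same tumour line. Slc29a1 encodes ENT1, through which nucleosides such as adenosine pass in and out of cells. The labels state neither the age of the mice nor whether each sample is a separate animal, so a p-value here reflects how far these samples vary, which may be technical.

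Type I interferons bind the receptor chains IFNAR1 and IFNAR2, whose kinases TYK2 and JAK1 act on transcription factors that include STAT2. STAT2 and IRF9 are parts of the complex ISGF3, which binds the interferon-stimulated response element in the promoters of many antiviral genes. The products include sensors of viral nucleic acid, enzymes that block translation or degrade RNA, and the ubiquitin-like protein ISG15. T cells carry the receptor and show this programme in tumours, and so do macrophages, dendritic cells, fibroblasts and tumour cells, each with its own mixture of target genes.

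The sequence that the shared regulation is known for is shown here, because the members differed in level although many carried it. Promoter windows, from 250 bases before to 50 bases after a start, were taken from RefSeq (GRCm38.p6), where 27 of the 37 members had 1 or more. The core searched was GAAA, any 2 bases and GAAA again, on both strands, counting overlapping matches. This core was found in 14 of 27 members (51.9%) and in 1131 of 32851 windows of all genes (3.44%), or 3.99% of 27025 genes. Among members with a window, it was present in 7 of 16 that were higher in ENT1KO and in 7 of 11 that were not. The windows printed are those of Ddx58 (chr4:40239776-40240075, minus strand), Oas3 (chr5:120777610-120777909, minus strand), Trim30a (chr7:104446076-104446375, minus strand) and Ifit3 (chr19:34583279-34583578, plus strand), which have the core and the smallest p among members of their role that do, and Isg15 (chr4:156200769-156201068, minus strand) and Bst2 (chr8:71537423-71537722, minus strand), which were added after their values were seen because they were not higher. Isg15 and Bst2, the only members of their roles in which the core was found, meet the same rule. So do Stat2 and Eif2ak2, which rose and are not printed. Their matches begin 222 bases before and 18 bases after the start, in that order. Each printed window runs 5′ to 3′ in the direction of the gene, and capitals mark the matches to the core or its reverse complement. The first bases of the matches of Ddx58 and Trim30a lie 2 bases after the start, that of Oas3 75 bases before it, those of Ifit3 156 and 122, those of Isg15, which overlap, 78, 72 and 66, and those of Bst2, which also overlap, 130 and 124 bases before it.
Ddx58: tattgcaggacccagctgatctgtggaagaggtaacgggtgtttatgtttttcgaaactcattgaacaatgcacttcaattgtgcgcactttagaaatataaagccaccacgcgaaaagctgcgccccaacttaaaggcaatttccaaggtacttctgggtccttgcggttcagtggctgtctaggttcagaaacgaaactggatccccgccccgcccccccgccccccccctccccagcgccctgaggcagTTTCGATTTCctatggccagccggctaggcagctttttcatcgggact
Oas3: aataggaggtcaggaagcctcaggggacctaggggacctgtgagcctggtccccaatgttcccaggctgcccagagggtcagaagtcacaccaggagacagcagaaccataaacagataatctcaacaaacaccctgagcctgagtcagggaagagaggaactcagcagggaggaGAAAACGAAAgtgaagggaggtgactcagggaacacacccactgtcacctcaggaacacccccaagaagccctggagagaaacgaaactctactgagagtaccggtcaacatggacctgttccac
Trim30a: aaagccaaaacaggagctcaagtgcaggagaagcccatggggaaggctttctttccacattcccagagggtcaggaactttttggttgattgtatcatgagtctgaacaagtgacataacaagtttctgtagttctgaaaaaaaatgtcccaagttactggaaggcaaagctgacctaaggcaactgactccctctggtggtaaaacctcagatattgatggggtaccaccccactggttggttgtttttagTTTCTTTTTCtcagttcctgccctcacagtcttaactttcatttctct
Ifit3: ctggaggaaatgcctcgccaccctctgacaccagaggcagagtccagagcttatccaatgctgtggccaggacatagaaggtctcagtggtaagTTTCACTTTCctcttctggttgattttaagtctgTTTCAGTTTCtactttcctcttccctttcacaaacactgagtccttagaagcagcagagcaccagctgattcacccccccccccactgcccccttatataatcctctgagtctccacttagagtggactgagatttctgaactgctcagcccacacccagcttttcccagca
Isg15: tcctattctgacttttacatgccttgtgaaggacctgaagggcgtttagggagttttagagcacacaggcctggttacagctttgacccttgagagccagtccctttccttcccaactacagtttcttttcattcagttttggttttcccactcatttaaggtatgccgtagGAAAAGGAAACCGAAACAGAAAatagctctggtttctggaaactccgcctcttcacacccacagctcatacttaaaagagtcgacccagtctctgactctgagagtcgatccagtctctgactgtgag
Bst2: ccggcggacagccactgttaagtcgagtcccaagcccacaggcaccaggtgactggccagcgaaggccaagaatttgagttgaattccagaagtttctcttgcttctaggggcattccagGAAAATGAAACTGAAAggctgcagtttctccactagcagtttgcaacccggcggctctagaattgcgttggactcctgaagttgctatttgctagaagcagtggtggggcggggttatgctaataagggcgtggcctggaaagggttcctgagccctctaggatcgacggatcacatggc

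Depth was close to equal, at 18624318 to 19660792 gene-assigned reads per library, inferred from the smallest step between normalized counts. For WT replicates 1 and 3 that step lies too near 1 to prove whole reads, so their totals of 18632462 and 18790100 are uncertain. Slc29a1 had 13.6, 13.2, 17.6 and 15 TPM in ENT1KO replicates 11, 12, 14 and 15, against 51.01, 58.9 and 49.7 TPM in WT replicates 1, 2 and 3. Every ENT1KO library thus lay below every WT library, the direction of the labels, although transcript of the gene remained in ENT1KO. The source of that transcript, and the part of tumour and other cells in these values, was not tested. The libraries differed in the levels of markers of several cell types. The summed level of 14 CD8 T cell identity genes was 9774, 11212, 9105 and 9944 TPM in ENT1KO replicates 11, 12, 14 and 15, against 4459, 2857 and 6871 TPM in WT replicates 1, 2 and 3, and all 14 were called higher in ENT1KO. The summed level of 18 macrophage and monocyte markers was 742, 924, 1692 and 440.3 TPM in ENT1KO replicates 11, 12, 14 and 15, against 4219, 6060 and 4114 TPM in WT replicates 1, 2 and 3, with 16 of 18 called lower and Lyz2 and Apoe the most abundant. The 18 fibroblast and tumour markers other than Thy1, which T cells also express, summed to 7.04 to 897 TPM in ENT1KO and 4294 to 8156 TPM in WT, highest in ENT1KO replicate 14 and WT replicate 2, and of 18 tested with Thy1, 17 were lower and Thy1 was higher. Neutrophil markers summed to 33.9 to 88.8 TPM in ENT1KO and 333 to 506 TPM in WT, with 8 of 8 tested lower. Conventional dendritic cell markers summed to 562 to 1374 TPM in ENT1KO and 2167 to 3169 TPM in WT, with 6 of 12 tested lower and 1 higher. The lower ones were Cd74 and H2-Eb1, the most abundant of the list, with H2-Aa, H2-Ab1, Fscn1 and Batf3. Flt3, Zbtb46, Clec9a, Cd209a and Itgax did not pass. Whether this sum measures dendritic cells alone was not tested. Plasmacytoid dendritic cell markers summed to 184 to 382 TPM in ENT1KO and 234 to 290 TPM in WT, with 2 of 12 lower and 1 higher. The most abundant of them were Irf8 and Runx2, averaging 143 and 69.8 TPM in ENT1KO and 110 and 43.3 TPM in WT. Activated CD8 T cells also express Irf8, so this sum does not measure plasmacytoid dendritic cells alone. None of these markers was at 0 in every library. In such bulk samples fewer cells of a type and less RNA per cell cannot be told apart.

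Most interferon-stimulated genes were higher in the ENT1KO libraries. In limma-trend on log2(TPM + 1), 25 of 37 members rose (67.6%, where 27.5% of all tested genes rose) and 2 fell (5.41%, where 23.1% of all tested genes fell), at an adjusted p of 0.05 over all 13798 genes. In either direction 27 members passed, where 50.6% of all tested genes did, and the other 10 did not. The median log2 difference, ENT1KO minus WT, was 0.65 over the members and 0.15 over all tested genes, and differences on this scale understate the change of low genes. Below, differences, rises and falls of single genes are in these log2 units. Among the 25 that rose, log2 differences ran from 0.50 to 1.43 and limma-trend adjusted p from 0.00121 to 0.0452. The unadjusted exact two-sided permutation p was 0.0571 for Usp18, Eif2ak2 and Ifi27l2a. For the others that rose it was 0.0286, the smallest this test can give. Every ENT1KO library lay above every WT library for 27 members (73.0%, where 30.3% of all tested genes did so), which are the 25 that rose, Ifih1 and Ifit1. For no member did every ENT1KO library lie below every WT library, where 24.9% of all tested genes did so. The summed level of the 37 was 3246, 2772, 3152 and 2826 TPM in ENT1KO replicates 11, 12, 14 and 15, against 1677, 1817 and 2086 TPM in WT replicates 1, 2 and 3, a ratio of means of 1.61.

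**Figure D1:**
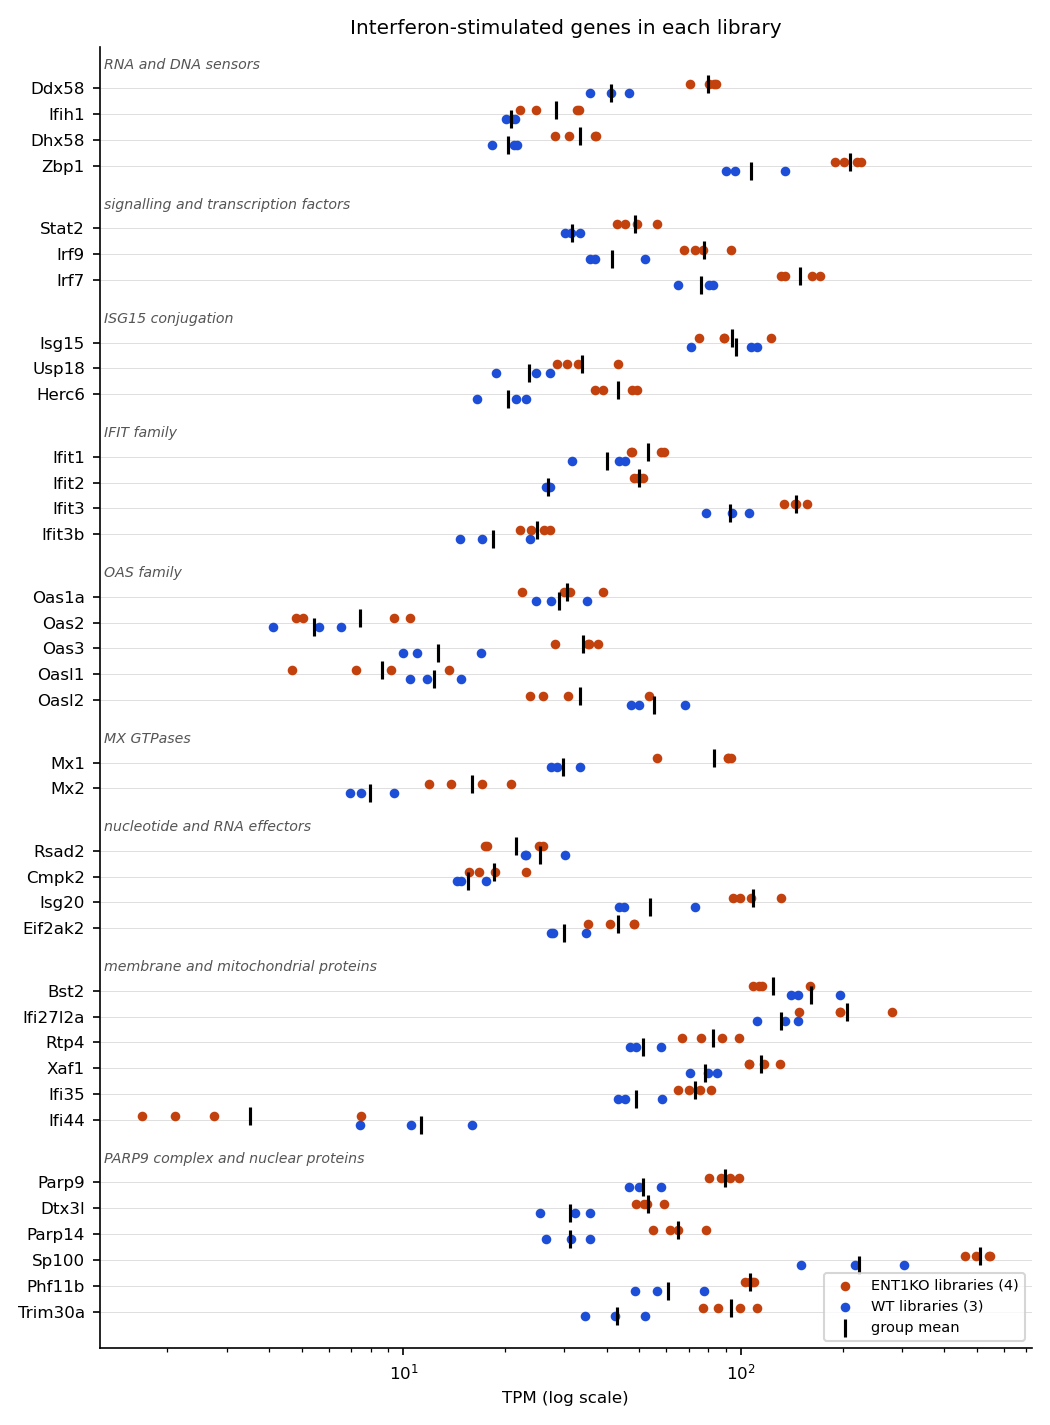
TPM of each of the 37 genes on a log axis, with 1 orange point per ENT1KO library (4), 1 blue point per WT library (3) and a black tick at each group mean, in groups by role. The orange points lie to the right of the blue for 27 genes. Ifi44, Oasl2, Oasl1, Bst2, Rsad2 and Isg15 have their orange means to the left.

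**Figure D2:**
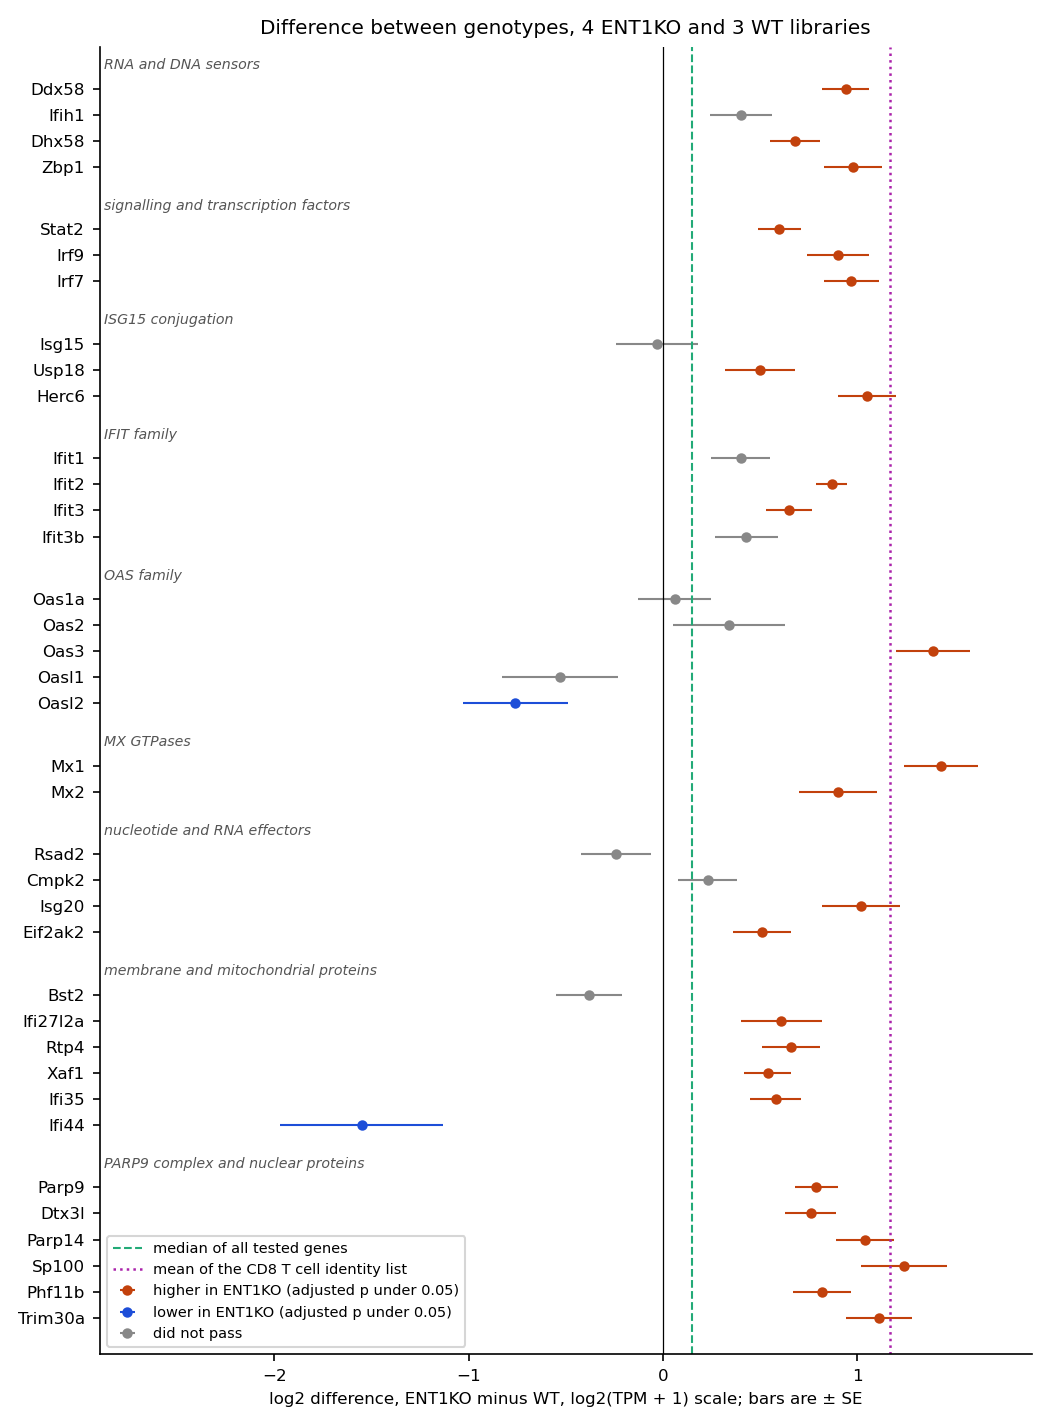
Log2 difference, ENT1KO minus WT, of log2(TPM + 1), for each gene, with bars of 1 SE over 4 ENT1KO and 3 WT libraries. The dashed line is the median of all tested genes (0.15) and the dotted line the mean of the CD8 T cell identity genes (1.17), and 22 of the 25 genes that rose lie between the lines.

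Of 4 sensors of foreign nucleic acid, 3 rose. Ddx58 encodes RIG-I, the cytosolic sensor of viral RNA ends (chromosome 4, 40203773 to 40239828, GRCm39). It had 84.4, 70.8, 80.6 and 83.3 TPM in ENT1KO replicates 11, 12, 14 and 15, against 41.2, 35.8 and 46.7 TPM in WT replicates 1, 2 and 3. The groups did not overlap, with a log2 difference of 0.94 (SE 0.12, limma-trend adjusted p = 0.00133). Zbp1, a sensor of Z-form nucleic acid that can start necroptosis, was the most abundant of the 4, at 219.9, 189.97, 227 and 201 TPM in the ENT1KO libraries, against 90, 96.04 and 135 TPM in the WT libraries. Its difference was 0.98 (SE 0.15, limma-trend adjusted p = 0.0022), with WT replicate 3 the nearest to the ENT1KO libraries. Dhx58 (LGP2), a regulator of the RNA sensors, rose by 0.68 (limma-trend adjusted p = 0.00467) on the log2 scale. Ifih1, which encodes the long double-stranded RNA sensor MDA5, did not pass. It averaged 28.2 ± 5.6 TPM in ENT1KO and 20.8 ± 0.647 TPM in WT (SD, n = 4 and n = 3, limma-trend adjusted p = 0.0617), and without ENT1KO replicate 15 the limma-trend adjusted p was 0.0258.

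All 3 factors that carry the interferon signal to DNA rose. Irf9, the DNA-binding subunit of ISGF3, was at 93.5, 73.2, 67.9 and 76.95 TPM in ENT1KO replicates 11, 12, 14 and 15, against 36.9, 35.6 and 51.99 TPM in WT replicates 1, 2 and 3, a difference of 0.9 (SE 0.16, limma-trend adjusted p = 0.00358). Its partner Stat2 was at 56.4, 45.3, 49.4 and 42.9 TPM in the ENT1KO libraries, against 33.3, 30.1 and 31.4 TPM in the WT libraries, with a smaller difference of 0.6 (SE 0.11, limma-trend adjusted p = 0.00443). WT values of Stat2 lay close together and below every ENT1KO value. Irf7, the factor that amplifies transcription of interferon-α genes, was at 172, 135, 162 and 132 TPM in the ENT1KO libraries, against 65.3, 80.6 and 82.5 TPM in the WT libraries, the highest of the 3, and rose by 0.97 (limma-trend adjusted p = 0.00169).

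ISG15 and its conjugation machinery did not move together. Isg15 encodes the ubiquitin-like modifier itself. It had 89.1, 75.2, 122 and 89.3 TPM in ENT1KO replicates 11, 12, 14 and 15, against 71.1, 111 and 107 TPM in WT replicates 1, 2 and 3. The groups overlapped fully, with the highest values in ENT1KO replicate 14 and WT replicate 2, and the difference was -0.03 (SE 0.21, limma-trend adjusted p = 0.908). Herc6, the mouse ligase that attaches ISG15, rose by 1.05 (SE 0.15, limma-trend adjusted p = 0.00182), at 47.7, 37, 49.1 and 38.9 TPM in the ENT1KO libraries, against 23.1, 16.5 and 21.5 TPM in the WT libraries. Uba7, the activating enzyme of the same pathway and not a member, rose by 1.31 (limma-trend adjusted p = 0.00129), while Ube2l6, its conjugating enzyme, fell by 0.79 on the log2 scale (limma-trend adjusted p = 0.0171). Usp18, which removes ISG15 and damps the receptor, averaged 33.7 ± 6.54 TPM in ENT1KO and 23.6 ± 4.35 TPM in WT (SD, n = 4 and n = 3). Its call (limma-trend adjusted p = 0.0452) was lost without any one of ENT1KO replicates 12, 14 and 15 and WT replicates 1 and 2, with a highest limma-trend adjusted p of 0.148.

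The IFIT proteins bind viral RNA and block its translation, and their 4 genes cluster on chromosome 19 between 34528094 and 34627409 (GRCm39). Ifit2 was at 50.4, 48.3, 49.4 and 51.1 TPM in ENT1KO replicates 11, 12, 14 and 15, against 27.1, 26.4 and 26.9 TPM in WT replicates 1, 2 and 3. No member varied less within either group, with a coefficient of variation of 2.49% in ENT1KO and 1.43% in WT, and the difference was 0.87 (SE 0.08, limma-trend adjusted p = 0.00121). Ifit3 was at 144, 134, 157 and 146 TPM in the ENT1KO libraries, against 79.03, 106 and 94.2 TPM in the WT libraries, a rise of 0.65 (SE 0.12, limma-trend adjusted p = 0.00403). Ifit1, which recognises RNA caps lacking methylation, did not pass at 0.4 (limma-trend adjusted p = 0.0586), although its groups did not overlap, at 58.02, 47.6, 59.2 and 47.3 TPM in the ENT1KO libraries, against 31.6, 43.6 and 45.4 TPM in the WT libraries. It passed without WT replicate 3 (limma-trend adjusted p = 0.0444). Ifit3b, a near-copy of Ifit3, stood at 0.43 (limma-trend adjusted p = 0.0565), and passed without WT replicate 2 (0.0115 by limma-trend). Of the distinct runs of 50 bases in GENCODE M21 transcripts, 51.2% of those of Ifit3 and 44.5% of those of Ifit3b were shared between the 2, so the split of reads between them is uncertain.

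Within the OAS family, whose enzymes make the 2-5A second messenger that activates RNase L, members went in opposite directions. Oas3, the largest enzyme, was at 35.5, 28.1, 35.3 and 37.6 TPM in ENT1KO replicates 11, 12, 14 and 15, against 10.9, 10 and 17.01 TPM in WT replicates 1, 2 and 3. The groups were far apart, with a difference of 1.39 (SE 0.19, limma-trend adjusted p = 0.00152). Oasl2, an OAS-like protein, was at 30.7, 25.9, 53.6 and 23.7 TPM in ENT1KO replicates 11, 12, 14 and 15, against 49.8, 68.3 and 47.2 TPM in WT replicates 1, 2 and 3. ENT1KO replicate 14 lay among the WT libraries and the other 3 below them, with a difference of -0.76 (SE 0.27, limma-trend adjusted p = 0.049) and an exact two-sided permutation p of 0.114. It was not called when any single library other than ENT1KO replicate 14 was left out, with a highest limma-trend adjusted p of 0.177, and without ENT1KO replicate 14 it was at -1.0 (limma-trend adjusted p = 0.00355). Oasl1, which represses translation of Irf7 mRNA, was also highest in ENT1KO replicate 14 and WT replicate 2, at 9.16, 7.23, 13.6 and 4.68 TPM in the ENT1KO libraries, against 10.4, 14.8 and 11.7 TPM in the WT libraries, and did not pass (-0.53, limma-trend adjusted p = 0.169), though without ENT1KO replicate 14 it did (limma-trend adjusted p = 0.038). Oas2 was low and overlapping, from 4.82 to 10.5 TPM in ENT1KO and 4.12 to 6.55 TPM in WT. Oas1a averaged 30.6 ± 6.75 TPM in ENT1KO and 29 ± 5.33 TPM in WT (SD, n = 4 and n = 3), a difference of 0.06 (limma-trend adjusted p = 0.793), and its sign turned to -0.01 on normalized counts, -0.02 after quantile normalization and -1.11 relative to the CD8 T cell identity list. Of its runs of 50 bases, 57.6% were shared with Oas1g.

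The MX GTPases, dynamin-like proteins that trap viral nucleocapsids, both rose. Mx1 was at 91.7, 91.4, 93.2 and 56.2 TPM in ENT1KO replicates 11, 12, 14 and 15, against 27.3, 28.5 and 33.4 TPM in WT replicates 1, 2 and 3. It had the largest difference of the 37 on TPM, 1.43 (SE 0.19, limma-trend adjusted p = 0.00147), and its ENT1KO replicate 15 stood well below the other 3 while still above WT. C57BL/6 mice are known to carry an Mx1 allele without antiviral function, so this is a level of transcript only. Mx2 was lower in level, at 17.1, 13.8, 20.9 and 11.9 TPM in the ENT1KO libraries, against 6.96, 7.47 and 9.39 TPM in the WT libraries, and rose by 0.9 (SE 0.20, limma-trend adjusted p = 0.00763).

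Enzymes that act on nucleotides and RNA were split. Isg20, an exonuclease for single-stranded RNA, was at 99.3, 107, 94.9 and 132 TPM in ENT1KO replicates 11, 12, 14 and 15, against 44.99, 43.5 and 73.1 TPM in WT replicates 1, 2 and 3, a rise of 1.02 (SE 0.20, limma-trend adjusted p = 0.00468). Eif2ak2 encodes PKR, the kinase that halts translation on double-stranded RNA. It averaged 43.1 ± 6.25 TPM in ENT1KO and 29.9 ± 4.19 TPM in WT (SD, n = 4 and n = 3) and rose by 0.51 (limma-trend adjusted p = 0.02), and did not pass when ENT1KO replicate 11 or WT replicate 2 or 3 was left out (highest limma-trend adjusted p 0.0648). Rsad2 encodes viperin, which makes a chain-terminating CTP analogue, and Cmpk2, its neighbour on chromosome 12, encodes a mitochondrial kinase of pyrimidine nucleotides. Rsad2 was at 25.2, 17.6, 25.9 and 17.4 TPM in ENT1KO replicates 11, 12, 14 and 15, against 23.04, 30.1 and 22.9 TPM in WT replicates 1, 2 and 3, overlapping between genotypes (-0.24, limma-trend adjusted p = 0.301). Cmpk2 was at 18.7, 15.6, 23.1 and 16.7 TPM in the ENT1KO libraries, against 14.4, 17.5 and 14.8 TPM in the WT libraries, also overlapping (0.23, limma-trend adjusted p = 0.242).

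In the group labelled membrane and mitochondrial proteins, a working label that does not place every protein in it, Ifi44 fell while 4 of the 6 rose. This GTP-binding-like protein had 2.11, 2.75, 7.48 and 1.68 TPM in ENT1KO replicates 11, 12, 14 and 15, against 10.5, 15.99 and 7.44 TPM in WT replicates 1, 2 and 3. ENT1KO replicate 14 reached the level of WT replicate 3. The difference was -1.55 (SE 0.42, limma-trend adjusted p = 0.0164), with an exact two-sided permutation p of 0.0857, and without WT replicate 2 the limma-trend adjusted p was 0.0661. Bst2 (tetherin), which holds budding virions at the cell surface, was at 113, 115, 160.1 and 109 TPM in ENT1KO replicates 11, 12, 14 and 15, against 141, 196 and 148 TPM in WT replicates 1, 2 and 3. Its ENT1KO libraries other than replicate 14 lay below WT, but it did not pass (-0.38, limma-trend adjusted p = 0.0997), and did so without ENT1KO replicate 14 (limma-trend adjusted p = 0.0266). Xaf1, an antagonist of the apoptosis inhibitor XIAP, rose by 0.54 (limma-trend adjusted p = 0.00674), the receptor-transporting protein gene Rtp4 by 0.66 (limma-trend adjusted p = 0.00795) and Ifi35 by 0.58 (limma-trend adjusted p = 0.00889). The deposited span of Rtp4 overlaps that of Masp1 by 525 bases. Ifi27l2a, a small mitochondrial protein, ran from 148 to 281 TPM in ENT1KO and 112 to 148 TPM in WT, and its call (0.61, limma-trend adjusted p = 0.0383) was lost without any one of ENT1KO replicates 11, 12 and 14 and WT replicates 1 and 2 (highest limma-trend adjusted p 0.125).

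All 6 genes of the PARP9 complex and the nuclear group rose, and all 6 kept their calls without any single library. Sp100, a scaffold of PML nuclear bodies, was the most abundant member in every library but WT replicate 2, where Bst2 was, at 544, 496, 459.6 and 545 TPM in ENT1KO replicates 11, 12, 14 and 15, against 217, 151 and 305 TPM in WT replicates 1, 2 and 3. WT replicate 2 was lowest and WT replicate 3 highest among WT, as for the CD8 T cell identity genes, and the difference was 1.24 (SE 0.22, limma-trend adjusted p = 0.00311). Parp9 and Dtx3l encode a mono-ADP-ribosyltransferase and the ubiquitin ligase it binds, and their deposited spans overlap by 682 bases on chromosome 16. Parp9 was at 98.4, 80.2, 92.6 and 87.2 TPM in the ENT1KO libraries, against 49.8, 46.5 and 57.9 TPM in the WT libraries, a difference of 0.79 (SE 0.11, limma-trend adjusted p = 0.00175). Dtx3l was at 59.3, 48.98, 51.8 and 52.5 TPM in the ENT1KO libraries, against 32.2, 25.4 and 35.8 TPM in the WT libraries, nearly the same difference, 0.76 (limma-trend adjusted p = 0.00311). Parp14, a macrodomain ADP-ribosyltransferase encoded nearby, rose by 1.04 (limma-trend adjusted p = 0.00175). Trim30a, a ring-finger protein that restrains NF-kB signalling, rose by 1.11 (SE 0.17, limma-trend adjusted p = 0.00217), at 111, 85.5, 99.3 and 77.4 TPM in the ENT1KO libraries, against 42.3, 34.5 and 52.1 TPM in the WT libraries. Phf11b, a PHD-finger protein, averaged 107 ± 2.99 TPM in ENT1KO and 60.9 ± 15.2 TPM in WT (SD, n = 4 and n = 3) and rose by 0.82 (limma-trend adjusted p = 0.00394).

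The next pattern was chosen after the values were seen, and its share over all tested genes was not counted. Of the 37 members, 12 were highest in the same pair of libraries, ENT1KO replicate 14 and WT replicate 2. They were the 6 with a negative difference (Isg15, Rsad2, Bst2, Oasl1, Oasl2 and Ifi44), 4 of the 6 with a positive difference that did not pass (Ifit3b, Oas1a, Oas2 and Cmpk2) and 2 of the 25 that rose (Dhx58 and Ifit3). Those are the libraries in which the macrophage and the fibroblast and tumour marker sums were highest within their groups, at 1692 and 6060 TPM for the macrophage list. Of the 25 members that rose, 10 had their highest ENT1KO value in replicate 14, 11 in replicate 11, and 2 had their highest WT value in replicate 2 while 19 had it in replicate 3. WT replicate 3 also held the highest WT sum of CD8 T cell identity genes. The part of these other cells in the members' differences was not tested. Left out together, ENT1KO replicate 14 and WT replicate 2 gave 22 members higher and 3 lower, with 2139 of all 13798 genes higher and 2664 lower, a choice added after the data were seen.

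**Figure D3:**
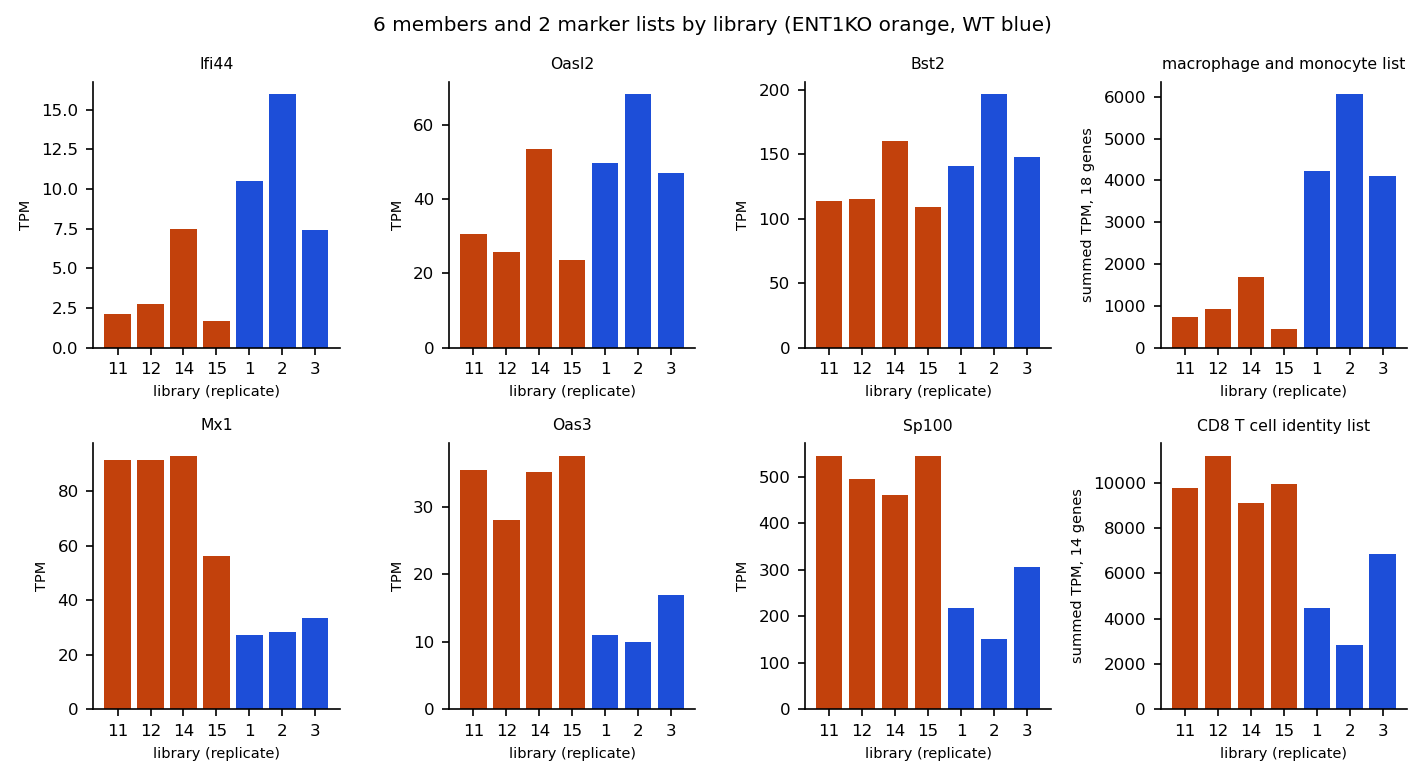
Bars give TPM of 6 members, and summed TPM of 2 marker lists, in ENT1KO replicates 11, 12, 14 and 15 (orange) and WT replicates 1, 2 and 3 (blue). Ifi44, Oasl2 and Bst2 peak within their groups in ENT1KO replicate 14 and WT replicate 2, as the macrophage and monocyte list does, while for Mx1, Oas3, Sp100 and the CD8 T cell identity list the lowest orange bar stands above the highest blue bar.

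The size of the differences depended on what the libraries were scaled to. On the authors' normalized counts, which moved the median of all genes to 0.00, 22 members were called higher (59.5%, against 21.0% of all genes) and 2 lower (5.41%, against 28.0%) in limma-trend, and 48.9% of all genes passed in either direction. All 22 were among the 25 called on TPM, and the 3 lost were Usp18, Eif2ak2 and Ifi27l2a. Over all genes, 54.4% of the calls on TPM and 42.9% of those on normalized counts were higher. By the authors' deposited table, of 37 members 22 were higher (59.5%, against 16.5% of 18878 genes with an adjusted p) and 3 lower (8.11%, against 25.8%), Bst2 being the third with a deposited log2 fold change of -0.53 and adjusted p of 0.0468. There Mx1 had a log2 fold change of 1.28 (SE 0.17, deposited adjusted p = 9.4e-12) and Ifi44 one of -1.95 (SE 0.56, deposited adjusted p = 0.00217). Measured relative to the CD8 T cell identity genes, which rose by a mean of 1.17 on TPM, the median of the members was -0.53 and that of all genes -1.03. On that scale no member was called higher in limma-trend (0 also at an unadjusted p under 0.05, and 0.159% of all genes called), 11 were lower (29.7%, against 66.2% of all genes), and only Mx1 (0.25), Oas3 (0.22) and Sp100 (0.07) had positive differences. There the limma p-values are too low, because subtracting 1 list gives every gene its error. Relative to the median of all genes the median of the members stood 0.50 higher on TPM and 0.51 on normalized counts. The identity scale shifts all genes of a library alike, so this distance is the same there as on TPM by construction. With the macrophage sum as a covariate no gene passed in limma-trend (829 of all genes and 20 members at an unadjusted p under 0.05). All 37 members then had positive differences, with a median of 0.79, against 0.09 over all genes. The fibroblast and tumour sum as covariate likewise left none (271 genes and 4 members unadjusted). With it 34 of 37 members had positive differences, with a median of 0.55, against 0.01 over all genes. This covariate included Thy1, and was 1202, 1742, 2277 and 1409 TPM in ENT1KO replicates 11, 12, 14 and 15. Thy1, which T cells express, gave 1132, 1557, 1380 and 1402 TPM of these, most of the level in each ENT1KO library. The other 18 markers gave 70.2, 185, 897 and 7.04 TPM. Within ENT1KO the covariate and these other markers were highest in replicate 14, and Thy1 was highest in replicate 12. Neither sum overlaps between ENT1KO and WT, so each covariate is nearly confounded with genotype.

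**Figure D4:**
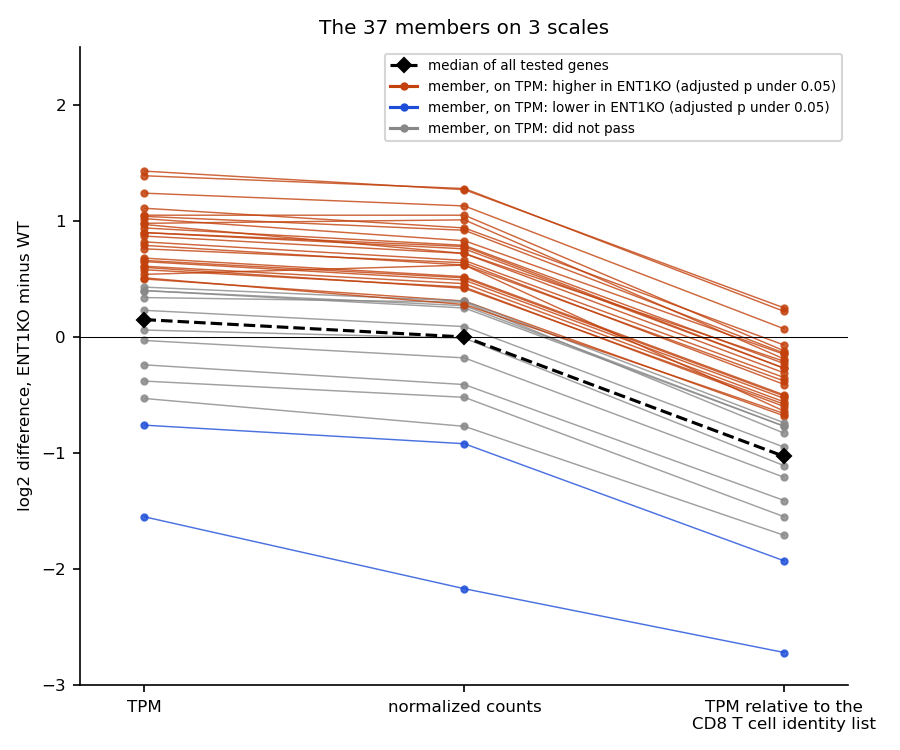
Log2 difference, ENT1KO minus WT, of each of the 37 members (1 line each) on TPM, on the authors' normalized counts and on TPM relative to the CD8 T cell identity genes, with the median of all tested genes as black diamonds (0.15, 0.00 and -1.03). On TPM and on normalized counts 30 of 37 lie above the median of all genes. The third scale shifts all genes alike, and there only Mx1, Oas3 and Sp100 are above 0.

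Other genes of the pathway were read from the same fit. Transcripts of the ligands were at or near 0, and of 13 type I and type III interferon genes listed, 11 were listed at 0 in all 7 libraries. Ifnb1 was listed at 0, 0, 0.1 and 0 TPM in ENT1KO replicates 11, 12, 14 and 15, against 0.48, 0.43 and 0.28 TPM in WT replicates 1, 2 and 3. Every ENT1KO library thus lay below every WT library, at values too low to enter the limma-trend fit. The authors' deposited table did test Ifnb1 and had it lower in ENT1KO (log2 fold change -4.34, SE 1.53, deposited adjusted p = 0.0136). Ifna4 was listed at 0.13 TPM in WT replicate 1 and at 0 in the other libraries. Ifng, the type II interferon made by CD8 T cells, was abundant, at 149, 201, 273 and 227 TPM in ENT1KO replicates 11, 12, 14 and 15, against 132, 64.3 and 121 TPM in WT replicates 1, 2 and 3. It rose by 1.04 (SE 0.28, limma-trend adjusted p = 0.0176), with all ENT1KO libraries above WT. Interferon-γ induces many of the same genes, and these lists do not separate the 2.

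Of 19 tested receptors and signal transducers, 13 rose and 2 fell, where 27.5% of all tested genes rose and 23.1% fell, and the median log2 difference was 0.64, against 0.15 over all genes. Ifnar1 rose by 0.65 (limma-trend adjusted p = 0.0276), a call lost without any one of ENT1KO replicates 11 and 12 and WT replicates 1 and 2 (highest limma-trend adjusted p 0.0998), and Ifnar2 did not pass (0.09, limma-trend adjusted p = 0.52). Of the kinases, Jak1 rose by 0.98 (limma-trend adjusted p = 0.00538), Tyk2 by 0.7 (limma-trend adjusted p = 0.00612) and Jak2 by 0.76 (limma-trend adjusted p = 0.00304). Irf3, which starts interferon transcription, rose by 0.76 (limma-trend adjusted p = 0.00234). Irf5, a factor of myeloid and B cells, fell by 1.43 on the log2 scale (limma-trend adjusted p = 0.0021), at 8.06, 10.1, 13.5 and 7.25 TPM in the ENT1KO libraries, against 25.3, 34.2 and 23.5 TPM in the WT libraries. The chains of the interferon-γ receptor, named after their values were seen, differed in direction: Ifngr1 rose by 1.16 (limma-trend adjusted p = 0.00587), and Ifngr2 fell by 1.42 on the log2 scale (limma-trend adjusted p = 0.0281), a call lost without WT replicate 1 or 2 (highest 0.119 by limma-trend). Relative to the CD8 T cell identity genes the differences of Jak1, Tyk2, Jak2, Irf3, Ifnar1, Ifngr1 and Ifng were below 0, at -0.20, -0.48, -0.42, -0.41, -0.53, -0.01 and -0.14 in that order.

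Of 14 genes that lead to interferon production, 5 rose, 2 fell and 7 did not pass, where 50.6% of all tested genes passed in either direction, and the median of 0.20 lay near the 0.15 of all genes. That share is near the background. The kinases that activate IRF3, Ikbke and Tbk1, rose by 1.21 (limma-trend adjusted p = 0.00322) and 0.85 (limma-trend adjusted p = 0.00467). The endosomal receptors Tlr3 and Tlr9 fell by 1.57 (limma-trend adjusted p = 0.0056) and 1.25 (limma-trend adjusted p = 0.00652) on the log2 scale. Tlr3 had 0.97, 1.57, 3.14 and 0.91 TPM in the ENT1KO libraries, against 7.37, 8.24 and 4.42 TPM in the WT libraries, and its highest ENT1KO and WT values were again in replicates 14 and 2.

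Of 44 tested genes in a list of other interferon-stimulated genes, 30 rose, 5 fell and 9 did not pass, where 27.5% of all tested genes rose and 23.1% fell, and the median was 0.81, against 0.15 over all genes. Rnf213, a large ubiquitin ligase with antimicrobial activity, was at 279, 203, 233 and 186 TPM in the ENT1KO libraries, against 84.8, 67.6 and 95.05 TPM in the WT libraries, a rise of 1.43 (SE 0.17, limma-trend adjusted p = 0.00127). Near relatives of the members, named after their values were seen, divided between the directions. Beside Phf11b, Phf11a rose by 0.95 (limma-trend adjusted p = 0.00305) and Phf11c by 1.67 (limma-trend adjusted p = 0.00154), whereas Phf11d was at 4.68, 5.39, 9.78 and 4.26 TPM in the ENT1KO libraries, against 19.4, 34.5 and 17.9 TPM in the WT libraries and fell by 1.83 on the log2 scale (limma-trend adjusted p = 0.00279). Phf11b shared 26.0%, 18.4% and 15.6% of its runs of 50 bases with Phf11a, Phf11c and Phf11d, so reads may be split among them. Beside Oas3, Oas1c rose by 1.2 (limma-trend adjusted p = 0.00778) and Oas1b by 0.66 (limma-trend adjusted p = 0.0443), while Oas1g, at 1.28, 0.69, 3.33 and 0.17 TPM in the ENT1KO libraries, against 6.83, 10.5 and 5.31 TPM in the WT libraries, fell by 1.98 on the log2 scale (limma-trend adjusted p = 0.00737). The Oas1b call was lost without ENT1KO replicate 11 or 14 or any one WT library (highest limma-trend adjusted p 0.143). Beside Trim30a, Trim30d rose by 1.02 (limma-trend adjusted p = 0.00124) and Trim30c by 1.21 (limma-trend adjusted p = 0.0024). Ifitm3, a membrane protein that blocks viral fusion and is abundant in macrophages and fibroblasts, was at 88.9, 113, 124 and 43.3 TPM in the ENT1KO libraries, against 301, 478 and 270.1 TPM in the WT libraries and fell by 1.97 on the log2 scale (limma-trend adjusted p = 0.00439).

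The members lie on 15 chromosomes, and Eif2ak2 is the only member on chromosome 17, which carries Slc29a1, at a distance of 33.2 Mb (GRCm39). In the deposited coordinates Oas3 (120891163 to 120915726) and Oas2 (120868398 to 120887918) adjoin on chromosome 5, with differences of 1.39 and 0.34, and Oasl2 and Oasl1 lie together at 115034997 to 115075974 on the same chromosome, with -0.76 and -0.53. On chromosome 19 all 4 IFIT genes had positive differences on TPM and on normalized counts, from 0.40 to 0.87 on TPM, and negative ones relative to the identity genes.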

How the data were processed

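RNA-seq of 7 sorted CD8 T cell samples was used, 4 ENT1KO and 3 WT, grouped by sample title, from at least 30000 cells per condition and 75 ng of RNA per library, per the labels' protocols and the design text. The authors deposited a table of TPM for 55357 genes, and labelled it stranded. A second table deposited by the authors holds a signal, gene read counts divided by 1 size factor per sample. It also holds the authors' log2 fold changes, a test statistic as a score, and deposited p-values with adjusted p-values. Tools listed, without roles, in the submitters' processing notes are STAR 2.7.1a, RSEM, Trimmomatic in versions 0.35 and 0.38, DESeq, and DESeq2 1.30.1, with GRCm39 as build; no annotation release was stated. All values of a normalized column were whole multiples of its smallest value (100% within 0.01), but for WT replicates 1 and 3 the step lies too near 1 to prove whole reads, so no count test was run and the test for TPM was used.

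The fit took genes reaching 1 TPM in 3 or more samples and was made with limma-trend and robust empirical Bayes on log2(TPM + 1), genotype as the only term, with Benjamini-Hochberg adjustment over 13798 genes (limma 3.58.1, R 4.3.3), after tests on simulated data. Fitted calls use an adjusted p of 0.05. Exact permutation tests of single genes, over all 35 ways to assign the labels, are two-sided and cannot give less than 0.0286. Depth is given by the read totals, and no counting intervals were computed from TPM. Every member is named. In each pathway list the 4 genes with the smallest p are named with Ifnar1, Ifnar2, Jak1, Tyk2 and Ifng, except that 1 gene is not reported here, and others were chosen after their values were seen. Members and lists were chosen with earlier results of these data known. Transcripts sharing runs of 50 bases were found in GENCODE M21 (GRCm38), used for sequence only. Alternatives were normalized counts, quantile normalization, scaling to the identity list, pseudocounts of 0.1 and 5, another filter (any TPM above 0, or 5 TPM in 3 libraries), 2 marker covariates and leaving out each library, plus, chosen after seeing the data, leaving out ENT1KO replicate 14 and WT replicate 2 together. Plots used Python 3.11.15 and matplotlib 3.10.9.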

Additional observations from a re-analysis of the deposited data

Results flagged for a closer look

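In 73 sets of 4 ENT1KO values checked for a sample far from the others, 2 stood out, where chance flags about 1 in 20. Mx1 was at 91.7, 91.4, 93.2 and 56.2 TPM in ENT1KO replicates 11, 12, 14 and 15, against 27.3, 28.5 and 33.4 TPM in WT replicates 1, 2 and 3. Its ENT1KO replicate 15 lay apart from the other 3, with a gap of 0.953 of the range of the ENT1KO values, past Dixon's critical value for 4 samples. Without ENT1KO replicate 15 the log2 difference of Mx1 was 1.60, against 1.43 with all libraries. Bst2 was at 113, 115, 160.1 and 109 TPM in ENT1KO replicates 11, 12, 14 and 15, against 141, 196 and 148 TPM in WT replicates 1, 2 and 3. Its ENT1KO replicate 14 lay above the other 3 with a gap of 0.877 of the range, and without it the log2 difference was -0.51, against -0.38 with all libraries. That library also had the highest ENT1KO sum of macrophage markers, 1692 TPM, and the part of this in the Bst2 value was not tested.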

How the results depend on the processing

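Of the 37 members, 33 kept both direction and side of the threshold on normalized counts, 33 after quantile normalization, 36 with a pseudocount of 0.1, 37 with one of 5, 34 with a filter above 0 in 1 sample and 37 with a filter of 5 TPM. The number called was 27 on TPM, and it was 11 relative to the identity list (0 higher and 11 lower) and 0 with either marker covariate in limma-trend, where the number over all genes was also 0 and the unadjusted counts are given above. The 4 pathway lists held 1, 19, 14 and 44 tested genes. Of these genes 58 were called on TPM, where 50.6% of all tested genes were. Relative to the identity list 34 were called, where 66.3% of all genes were, and 0 with either covariate. Members called lower numbered 1 with a pseudocount of 0.1 and 1 with a filter above 0 in 1 sample. When 1 library was left out, 23 to 25 members were higher and 0 to 4 lower, 0 without WT replicate 2 and 4 without ENT1KO replicate 14, while over all 13798 genes 2315 to 3748 were higher and 2525 to 3145 lower, against 3800 and 3182 with all libraries. Log2 differences that changed sign then ran from -0.02 to 0.63 for Irf8, from -0.23 to 0.09 for Isg15 and from -0.06 to 0.2 for Oas1a. The cause of these changes was not tested, except that a setting with fewer samples has less information.

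On other scales some log2 differences changed sign. Relative to the identity list, whose own rise of 1.17 is subtracted, they were Ddx58 -0.23, Ifih1 -0.77, Dhx58 -0.50, Zbp1 -0.19, Stat2 -0.58, Irf9 -0.27, Irf7 -0.21, Usp18 -0.68, Herc6 -0.12, Ifit1 -0.77, Ifit2 -0.31, Ifit3 -0.53, Ifit3b -0.74, Oas1a -1.11, Oas2 -0.83, Mx2 -0.27, Cmpk2 -0.95, Isg20 -0.15, Eif2ak2 -0.66, Ifi27l2a -0.56, Rtp4 -0.51, Xaf1 -0.64, Ifi35 -0.60, Parp9 -0.38, Dtx3l -0.41, Parp14 -0.14, Phf11b -0.35, Trim30a -0.07, Irf3 -0.41, Jak2 -0.42, Tbk1 -0.32, Trim30d -0.15, Ifnar1 -0.53, Ifnar2 -1.08, Jak1 -0.20, Tyk2 -0.48, Ifng -0.14, Oas1b -0.51, Phf11a -0.22, Ifngr1 -0.01, Ifitm1 -0.64 and Irf8 -0.94. With the macrophage covariate they were Isg15 0.59, Oasl1 1.11, Oasl2 0.72, Rsad2 0.45, Bst2 0.45, Ifi44 0.75, Tlr9 0.01, Ifnar2 -0.0045, Oas1g 0.39, Ifitm3 0.07 and Ube2l6 0.17. With the fibroblast and tumour covariate, which includes Thy1, they were Irf9 -0.28, Isg15 0.55, Oasl1 0.89, Oasl2 1.02, Rsad2 0.30, Isg20 -0.03, Bst2 0.77, Ifi44 1.78, Sp100 -0.17, Irf5 0.25, Ikbke -0.02, Tlr3 0.94, Tlr9 0.08, Ifnar1 -0.15, Jak1 -0.25, Oas1c -0.08, Oas1g 0.63, Phf11d 0.51, Ifitm3 0.21, Ifngr1 -0.11 and Ube2l6 0.35. On normalized counts the sign changed for Oas1a -0.01 among the named genes, after quantile normalization for Oas1a -0.02 and Ifnar2 -0.04, and without ENT1KO replicate 14 and WT replicate 2 together for Irf8 -0.01. No paired analysis was possible because the genotypes share no replicate numbers. Precision is limited by 4 and 3 libraries, and members of low level, such as Oas2, Oasl1 and Ifi44, also by the pseudocount, since TPM keeps no depth.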

Other observations

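Among other interferon-inducible genes, Ifitm1 and Irf8 varied widely within ENT1KO. Ifitm1, a membrane protein of the family of Ifitm3, was at 858, 1276, 587 and 176 TPM in ENT1KO replicates 11, 12, 14 and 15, against 437, 281 and 523 TPM in WT replicates 1, 2 and 3. ENT1KO replicate 15 was the lowest of all 7 libraries and replicate 12 the highest, and the difference of 0.53 did not pass (limma-trend adjusted p = 0.49), but did without that library (1.1, limma-trend adjusted p = 0.0294). Irf8, an interferon-regulated factor of dendritic cells and of activated CD8 T cells, was at 141, 218, 156 and 55.9 TPM in ENT1KO replicates 11, 12, 14 and 15, against 108, 88.1 and 135 TPM in WT replicates 1, 2 and 3. Here too ENT1KO replicate 15 was the lowest and replicate 12 the highest, with a difference of 0.24 (limma-trend adjusted p = 0.655) that passed without ENT1KO replicate 15 (0.63, limma-trend adjusted p = 0.0467). Ifit1bl1, a relative of Ifit1 outside the 37, had a larger difference than any of them, 1.77 (SE 0.24, limma-trend adjusted p = 0.00162), at 62.3, 62.2, 54.5 and 71.6 TPM in ENT1KO replicates 11, 12, 14 and 15, against 15.9, 12.2 and 27.8 TPM in WT replicates 1, 2 and 3. These 3 genes were chosen after their values were seen.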
